A study of Bos taurus with 15 samples.

Results

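The genes described here are those whose level fell when bovine retinal endothelial cells were treated with succinylacetone and stayed level when the same kind of cell was given an siRNA against FLVCR2. They number 109 of the 27607 genes listed. All 4 conditions of the choice used CPM (the count divided by the library total and multiplied by 1000000). A member had a group mean no lower than 5 CPM in any of the 4 groups, a log2 ratio of mean CPM, succinylacetone over control, at or below -0.5, every succinylacetone library below every control library, and a log2 ratio of FLVCR2 siRNA over scrambled siRNA within 0.1 of 0. The fall with succinylacetone and the flat level with siRNA are thus the choice itself, and are given below as a description with no test.

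Retinal endothelial cells line the blood vessels of the retina and form the inner barrier between blood and retina. Heme, an iron-holding ring molecule, is made by a chain of enzymes that begins and ends in the mitochondria, and it is both a cofactor of proteins of respiration and a signal that transcription factors and kinases read. Succinylacetone blocks the heme synthesis enzyme aminolevulinate dehydratase. FLVCR2 is a membrane transporter found in endothelial cells of the brain and retina, and loss of it is known to disturb vessel growth there.

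PolyA RNA was sequenced in 2 experiments on Bos taurus cells, labelled as endothelial cells of the retina. In the first, 4 control libraries (labelled con) were set beside 4 libraries of cells given succinylacetone (SA). In the second, 4 libraries of cells given scrambled siRNA (scr) were set beside 3 libraries of cells given siRNA against FLVCR2, titled siF1 to siF3. The treatment label is siFLVCR2 for FLVCR2 siRNA replicate 1, siFLVCR3 for replicate 2 and siFLVCR4 for replicate 3; all were placed by their titles, since FLVCR2 is the only target in the study's design text. No strain, age, dose or duration is given in the sources used here, nor whether each library stands for a culture of its own.

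Libraries held from 18842196 to 34754170 counts, and the smallest count behind any member's value in a library was 89 (median over members and libraries 691). The files name genes by Ensembl ID only, and the gene table used for symbols matched 0 of them. For that reason FLVCR2 itself, the endothelial and other cell type markers, the gene lists and the functions of the members were not analysed here, and members are described by rank apart from the IDs of the largest fall and of the highest level in control. Whether the siRNA lowered FLVCR2 in these libraries is thus not known here. A flat level with siRNA therefore cannot be read as no response to loss of FLVCR2.

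The floor of 5 CPM in all 4 groups was met by 9727 genes. Of these, 249 fell by the required amount with succinylacetone, and 246 of these also had no overlap between treated and control libraries. Separated falls of this size made up 2.53% of the 9727 genes, and separated falls of any size 15.2%. The siRNA condition then kept 109 of the 246, or 44.3%. Among all 9727 genes, 65.9% had a siRNA log2 ratio within 0.1 of 0, a share set beside that of the lowered genes as a description, since both ratios were used for the choice. Of the remaining lowered genes, 104 were higher by 0.1 or more with FLVCR2 siRNA and 33 were lower by 0.1 or more.

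**Figure D1:**
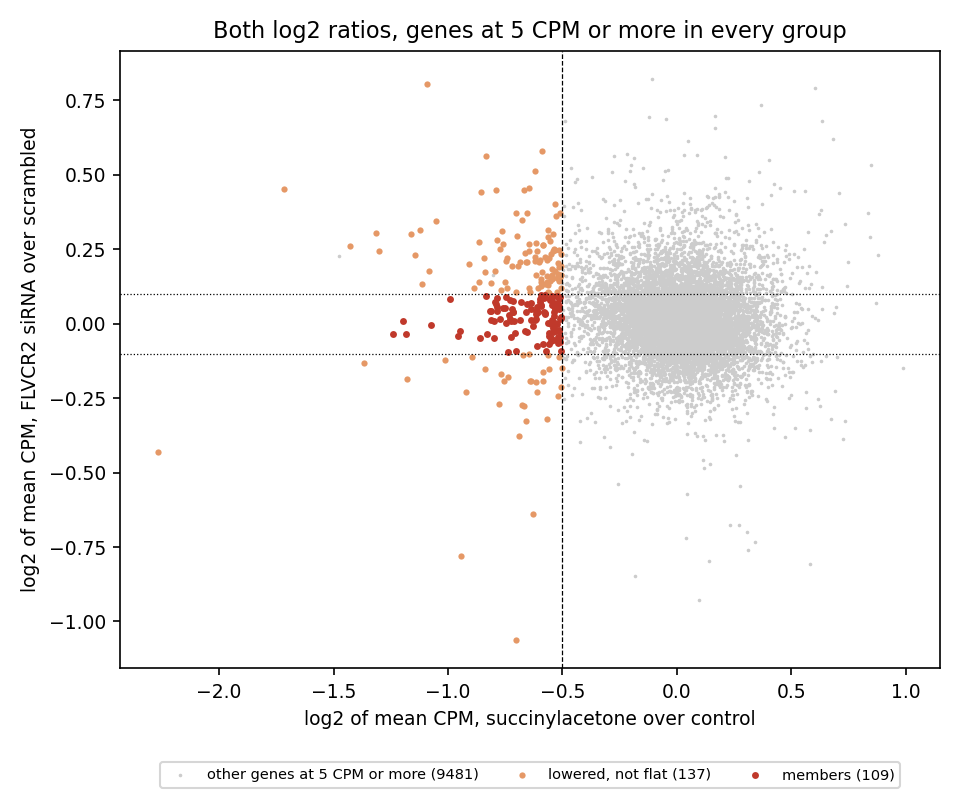
Each point is a gene with at least 5 CPM in all 4 groups. The horizontal axis is the log2 ratio of mean CPM of succinylacetone over control, the vertical axis that of FLVCR2 siRNA over scrambled siRNA. Red points are the 109 members, orange points the other 137 lowered genes and grey points the remaining 9481 genes. Broken and dotted lines mark the limits of -0.5 and of 0.1 to either side of 0. The orange points lie mostly above the band of members, 104 above it and 33 below it.

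Members near the limits differed little from the genes left out. The smallest falls kept were log2 ratios of -0.50 (14.1 CPM in control and 9.91 with succinylacetone) and -0.51 (133 and 93.8 CPM). The nearest gene left out went from 113 to 79.9 CPM, a log2 ratio of -0.498. On the siRNA side the last members stood at 0.098 and -0.096 and the first genes left out at 0.101 and -0.102. A single gene met every condition except separation of the libraries, with means of 10.4 CPM in control and 7.23 CPM with succinylacetone. The floor of 5 CPM left out 72 genes that met the other conditions, the nearest with a mean of 4.90 CPM with succinylacetone.

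Most members fell by a modest amount with succinylacetone. The median log2 ratio of mean CPM was -0.61, a 1.52-fold lower level, with quartiles of -0.73 and -0.54. Only 4 members fell by at least 2-fold, 19 had a log2 ratio between -1 and -0.75, 32 between -0.75 and -0.6, and 54 between -0.6 and -0.5. The median member went from 32.2 CPM in control to 19.6 CPM with succinylacetone; these medians were taken in each group separately. By edgeR's quasi-likelihood test, 109 of 109 members were called lower with succinylacetone, where 15.9% of all 12727 genes tested were, but the members were chosen on this contrast and the count adds nothing to the choice.

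The largest fall among the members was that of ENSBTAG00000008827. It stood at 31.7, 30.5, 28.3 and 28.1 CPM in control replicates 1 to 4 and at 14.3, 10.9, 13.0 and 11.9 CPM with succinylacetone. The lowest control library was thus still well above the highest treated library, by 1.97-fold, the widest such gap among the members. The group means were 29.6 ± 1.74 and 12.5 ± 1.44 CPM (SD, n = 4 each), a 2.36-fold lower level with succinylacetone, and edgeR gave a log2 fold change of -1.25 (SE 0.0807).

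In the siRNA experiment ENSBTAG00000008827 stood at 36.3, 37.7, 38.3 and 37.9 CPM with scrambled siRNA and at 37.7, 37.9 and 34.4 CPM with FLVCR2 siRNA. FLVCR2 siRNA replicate 3 lay just below the scrambled libraries and the other 2 within their range. The means were 37.5 ± 0.856 (SD, n = 4) and 36.7 ± 1.99 CPM (SD, n = 3), and the edgeR log2 fold change was -0.05 (SE 0.0719, 95% interval -0.20 to 0.10). All 7 libraries of this experiment lay above the 8 of the other.

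ENSBTAG00000023907 had the highest level of the members in control and one of the smallest falls, rank 107 of 109. Its control libraries held 811, 813, 734 and 842 CPM and its succinylacetone libraries 544, 568, 585 and 557 CPM, with no overlap. The means were 800.0 ± 46.0 and 563 ± 17.3 CPM (SD, n = 4 each), a 1.42-fold lower level, with an edgeR log2 fold change of -0.52 (SE 0.0397). With scrambled siRNA it stood at 438, 499, 513 and 491 CPM and with FLVCR2 siRNA at 513, 510 and 458 CPM, overlapping groups whose means were 486 ± 32.6 (SD, n = 4) and 494 ± 30.9 CPM (SD, n = 3). The siRNA libraries of this gene thus all lay below the succinylacetone libraries, although their own contrast was flat (edgeR log2 fold change 0.01, SE 0.0665).

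**Figure D2:**
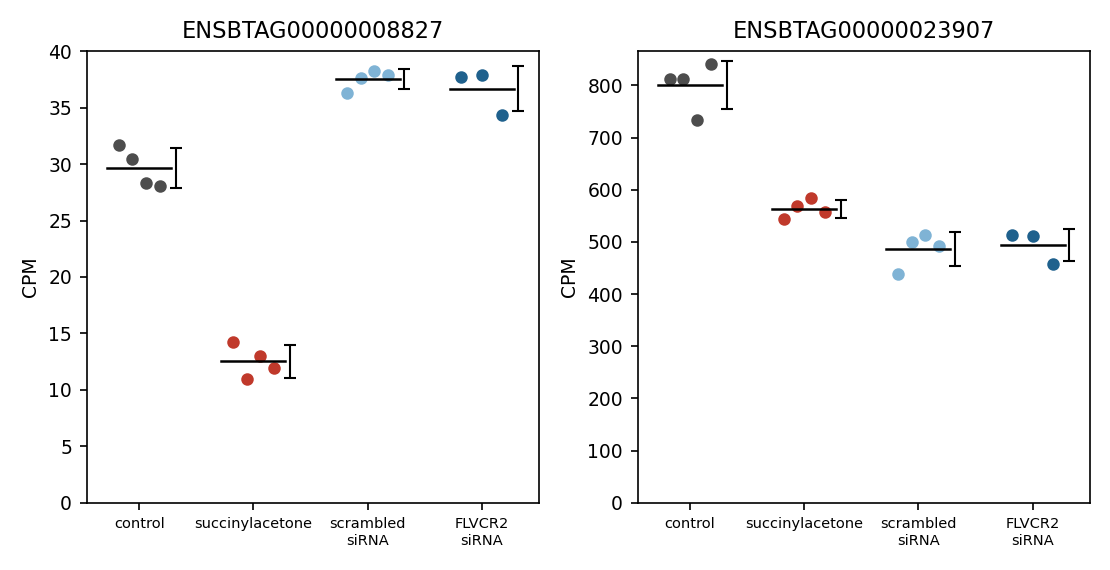
CPM of the 2 members printed by ID in all 15 libraries, 1 point per library, with the group mean as a line and its SD as a bar. ENSBTAG00000008827 is lowest with succinylacetone, at a mean of 12.5 CPM, and its siRNA groups overlap. ENSBTAG00000023907 falls from 800.0 to 563 CPM with succinylacetone, and both siRNA groups lie lower still.

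The next 3 falls were also past 2-fold and came from genes of low or moderate level. The gene of rank 2 had 16.0, 14.7, 16.2 and 14.98 CPM in control and 7.63, 5.47, 7.13 and 6.78 CPM with succinylacetone. That of rank 3 had 34.4, 38.8, 32.7 and 35.0 CPM in control and 13.96, 17.3, 15.8 and 14.9 CPM with succinylacetone. That of rank 4 had 10.9, 12.3, 13.0 and 13.3 CPM and then 5.86, 6.32, 6.61 and 4.69 CPM. In each of them the highest succinylacetone library lay below the lowest control library, and which treated library was lowest differed: replicate 2, replicate 1 and replicate 4. Their means with scrambled and with FLVCR2 siRNA were 13.2 and 13.3 CPM for rank 2, 32.9 and 32.2 CPM for rank 3, and 12.4 and 12.3 CPM for rank 4.

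The falls were compared across levels, with the choice keeping every one past the same limit. Over the 36 members with the lowest control means (7.66 to 19.3 CPM) the median log2 ratio with succinylacetone was -0.61, over the 36 in the middle (20.3 to 46.7 CPM) it was -0.66 and over the 37 highest (47.6 to 800.0 CPM) it was -0.57. Falls of at least 0.75 on the log2 scale numbered 7, 11 and 5 in these sets. The largest fall was -1.20, -1.24 and -0.86, so the 4 falls of at least 2-fold all lay outside the 37 highest members. The control levels of the members had quartiles of 17.0, 32.2 and 67.7 CPM, against 16.7, 36.1 and 84.4 CPM for all 9727 genes. Their median and upper quartile were thus lower. The floor with succinylacetone and the required fall together keep genes of the lowest control levels out of the members. The lower quartiles are therefore not like for like.

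The width of the separation required by the choice differed between members. Over the 109 members the lowest control library exceeded the highest succinylacetone library by 1.03-fold to 1.97-fold, with a median of 1.30-fold, and in 93 members by at least 1.2-fold. The spread between libraries of a group had a median coefficient of variation of 7.41% in control and 6.86% with succinylacetone, slightly above the 6.24% and 5.86% of all 9727 genes. In the siRNA experiment the medians were 7.37% with scrambled and 5.97% with FLVCR2 siRNA, against 7.33% and 5.91%.

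The fall was shared by all 4 succinylacetone libraries. All 109 members lay below their control mean in each of them, which separation of the groups requires. The median log2 ratio to the control mean was -0.61, -0.64, -0.59 and -0.68 in replicates 1 to 4, while over all 9727 genes it lay between -0.03 and 0.05. Replicate 4 was the lowest treated library in 44 members and replicate 2 in 31, against 19 for replicate 1 and 15 for replicate 3. Among the control libraries, replicate 1 was the highest in 49 members and replicate 3 the lowest in 40, with median log2 ratios of 0.06 and -0.05.

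Summed over the members, the level was 7526, 7324, 7106 and 7296 CPM in control and 4859, 4785, 4959 and 4696 CPM with succinylacetone. The treated sum was 0.660 of the control sum. ENSBTAG00000023907 alone made up 10.9% of the control sum, and without it the ratio was 0.654. In the siRNA experiment the sums were 6936, 6843, 7146 and 7234 CPM with scrambled and 7049, 7168 and 7174 CPM with FLVCR2 siRNA, which overlap. CPM is a share of the library total. Fewer cells of a type, less of these RNAs per cell and more RNA of other genes cannot be told apart in these bulk samples.

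**Figure D3:**
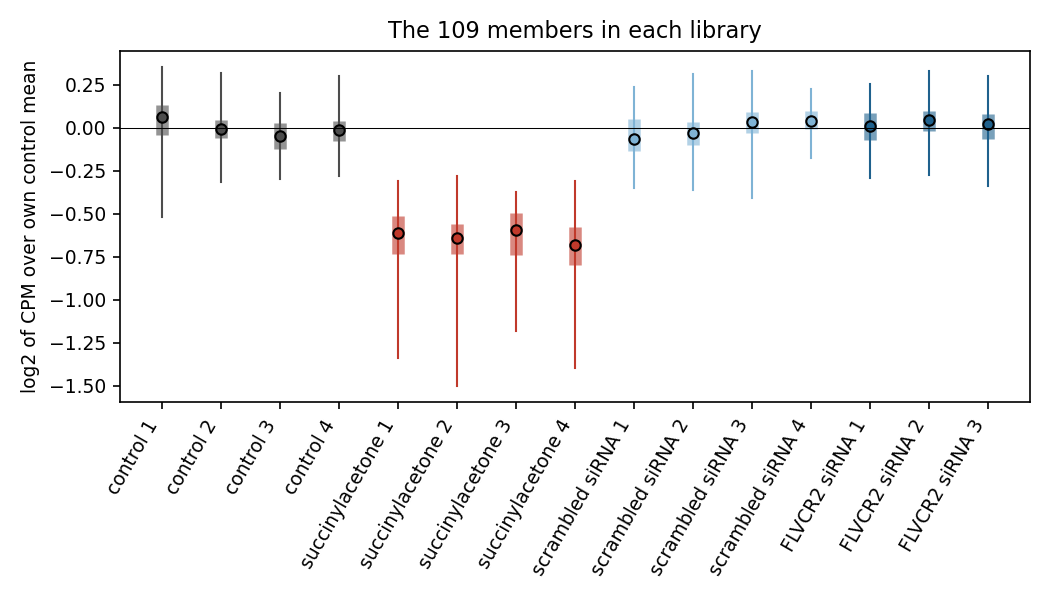
For each of the 15 libraries, the log2 ratio of CPM to the mean of the control group of the same experiment, over the 109 members. Points are medians, thick bars the quartiles and thin lines the full range. The succinylacetone medians lie between -0.68 and -0.59, and those of every other library between -0.06 and 0.06.

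With FLVCR2 siRNA the members stayed near the scrambled level by choice, and their log2 ratios of mean CPM ran from -0.096 to 0.098 with a median of 0.020. By edgeR 0 of 109 members were called, where 1.78% of all 12976 genes tested were, and DESeq2 also called 0. At an unadjusted p under 0.05 the edgeR count was 0 as well, against 12.0% of all genes tested. The groups of libraries did not overlap in 3 members, all higher with FLVCR2 siRNA, where 12.5% of the 9727 genes were without overlap in either direction. These counts rest on the contrast used for the choice and nothing is read from them.

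Within the allowed band the siRNA log2 ratio was above 0 in 71 members (65.1%) and below in 38, while among all genes in the same band 51.3% were above. The edgeR log2 fold change, which differs in scaling and in the estimate, was above 0 in 60 of the 109, with a median of 0.006. Before the siRNA condition was applied, 175 of the 246 lowered genes (71.1%) were above 0, against 54.2% of all 9727. No share over all genes is set beside the edgeR count. The siRNA ratio was itself used for the choice, so these shares are a description and their difference was not tested.

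The precision of the siRNA experiment sets how flat a member can be called. The edgeR standard error of the siRNA log2 fold change lay between 0.0555 and 0.139 over the members, with a median of 0.0800. The half-width of the 95% interval was 0.166 at the median, 0.227 over the 24 members under 15 CPM with scrambled siRNA and 0.131 over the 20 at 100 CPM or more. The interval lay wholly within 0.25 of 0 in 81 members and within 0.5 of 0 in all 109, and its bounds reached -0.36 and 0.29. Since members were picked for a ratio near 0, these intervals sit closer to 0 than those of genes not so picked. Their stated coverage of 95% does not hold after such a choice. The counts of 81 and 109 follow largely from the choice, were not set beside all genes, and nothing is read from them.

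**Figure D4:**
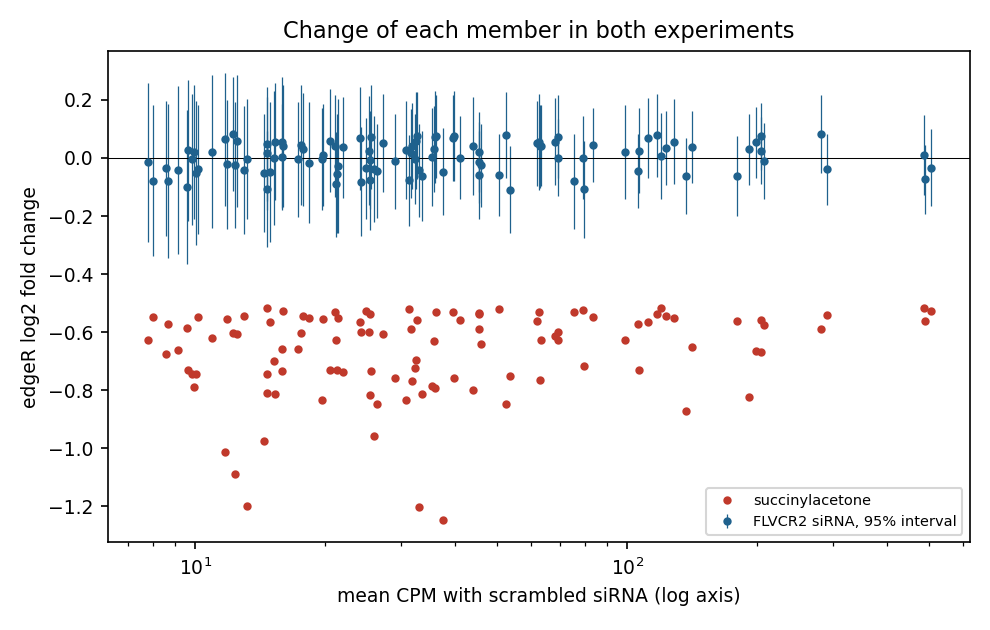
The edgeR log2 fold change of each member with FLVCR2 siRNA (blue, with its 95% interval) and with succinylacetone (red), against the mean CPM with scrambled siRNA on a log axis. The siRNA intervals are wider at low than at high levels; the gap between the blue and red points follows from the choice of members.

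The siRNA libraries were looked at singly because their treatment labels differ. FLVCR2 siRNA replicate 1, labelled siFLVCR2, lay within the range of the scrambled libraries in 70 members, above it in 25 and below it in 14. Replicate 2 lay within in 79, above in 25 and below in 5, and replicate 3 within in 73, above in 21 and below in 15. The choice on the mean siRNA ratio favours values within the range. The same counts were not made over all genes, so these do not tell whether the labels matter. The median log2 ratios to the scrambled mean were 0.01, 0.04 and 0.02. With replicate 1 as the only siRNA library the rule gave 100 genes, of which 73 were among the 109.

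Levels were then set side by side over the experiments. These may differ in handling or in other ways that the labels do not give, as well as in treatment. The source of a gap between their levels thus cannot be told and was not tested. The choice had already set the succinylacetone libraries of every member below its control libraries and held the siRNA means close together. The counts that follow thus restate the choice in part. In 106 members the succinylacetone mean was the lowest of the 4 group means, and in 98 every succinylacetone library lay below all 11 other libraries. Among all 9727 genes, 8.14% had every succinylacetone library below all 11 others, and no such share was computed for the group means. The scrambled mean was within 0.25 of the control mean on the log2 scale in 75 members (68.8%), against 83.5% of all 9727 genes. It was lower than control in 65 members and higher in 44, with a median log2 ratio of -0.06 and quartiles of -0.19 and 0.09, where all genes had a median of 0.03 and quartiles of -0.09 and 0.14.

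A few members stood far apart between the experiments. The scrambled mean was at least 0.5 above control in 4 members (3.67%, against 0.658% of all 9727 genes) and at least 0.5 below in 4 (3.67%, against 1.10%). In the gene of rank 38 the control libraries held 130, 146, 129 and 135 CPM and the succinylacetone libraries 81.2, 90.7, 83.0 and 76.7 CPM. Its scrambled libraries held 65.5, 86.6, 83.6 and 82.3 CPM and its FLVCR2 siRNA libraries 75.4, 76.1 and 72.3 CPM, so the scrambled libraries overlapped the succinylacetone libraries and the FLVCR2 siRNA libraries lay just below them. The gene of rank 37 went the other way, with 17.0, 13.4, 12.1 and 11.02 CPM in control, 8.22, 8.76, 7.84 and 7.96 CPM with succinylacetone, and 18.5, 22.0, 21.7 and 22.9 CPM with scrambled siRNA. Its FLVCR2 siRNA libraries held 17.4, 22.3 and 22.8 CPM, and all 7 siRNA libraries exceeded all 8 of the other experiment.

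**Figure D5:**
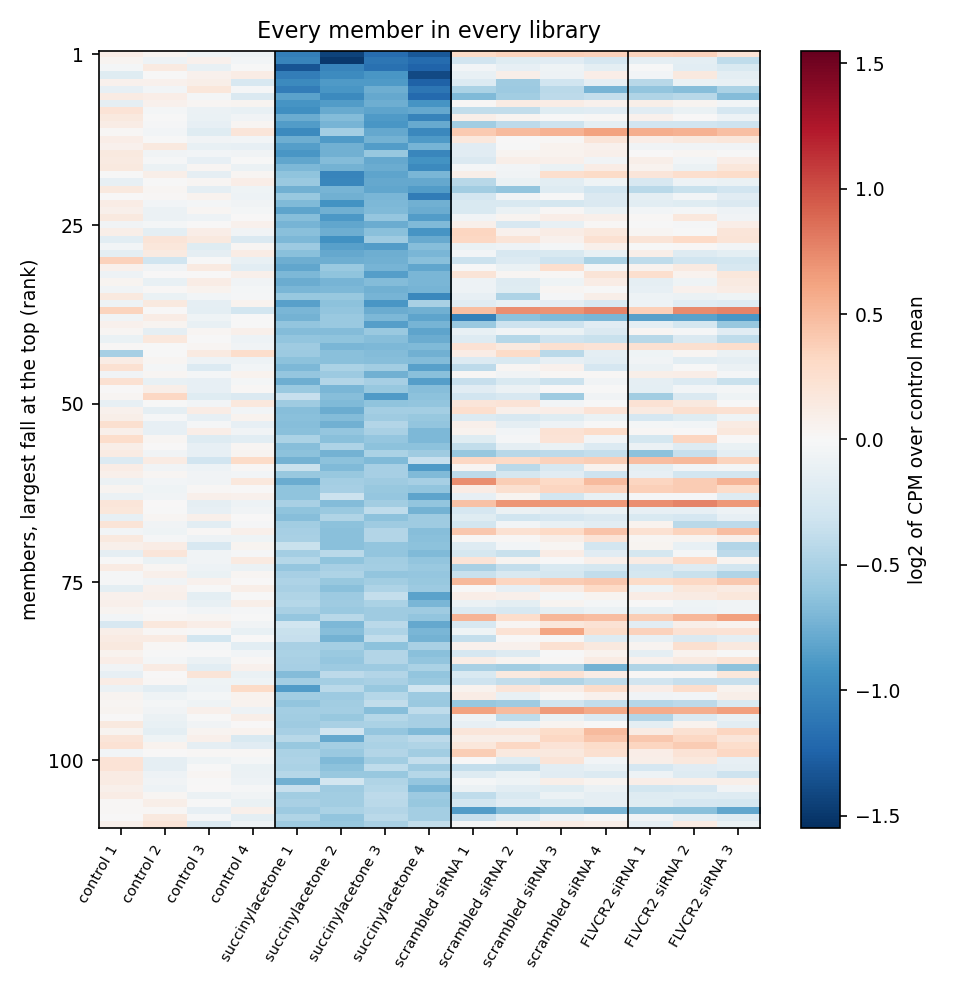
Every member (rows, largest fall at the top) in every library (columns), coloured by the log2 ratio of CPM to the mean of the control group of the succinylacetone experiment. The succinylacetone columns are blue in all 109 rows. In the siRNA columns most rows are pale, and rows that are red or blue keep their colour over scrambled and FLVCR2 siRNA libraries, as at ranks 37 and 38. The choice holds the scrambled and FLVCR2 siRNA means close together, so this match of colour follows largely from it.

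The members were set beside the other lowered genes, from which the siRNA ratio alone divides them, without a test. The median log2 ratio with succinylacetone was -0.61 in the 109 members, -0.62 in the 104 genes higher with FLVCR2 siRNA and -0.67 in the 33 genes lower with it. Falls of at least 2-fold were found in 4 members (3.67%), 11 of the 104 (10.6%) and 4 of the 33 (12.1%), and the largest reached -1.24, -1.71 and -2.27. Median control levels were 32.2, 31.9 and 25.3 CPM. The scrambled mean was below the control mean in 65 of the 109, 87 of the 104 and 10 of the 33, with median log2 ratios of -0.06, -0.26 and 0.10. These sets are cut from the same siRNA ratio, in which the scrambled libraries enter, so these values are a description.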

How the data were processed

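The authors deposited 1 table of whole-number counts per Ensembl gene for each experiment, not normalized, and no value column was left out. The submitters' processing notes name featureCounts, DESeq2 and the builds hg38 and ARS-UCD1.2, with no role for the builds; for the aligner, annotation release and strand setting nothing is stated, and reads of overlapping or near-identical genes may sit with either. CPM used plain library totals. The 2 treatments were tested separately, against the control of the same experiment, in R 4.3.3 with edgeR 4.0.16 (TMM, filterByExpr, robust quasi-likelihood F test, Benjamini-Hochberg adjustment over all genes, threshold 0.05); all 109 members passed the filter in both comparisons. Standard errors came from the fitted information and the moderated quasi-dispersion, and 95% intervals from its degrees of freedom. The tests were also run on counts simulated with the same dispersion for all genes. That setting is simpler than these data, so the run cannot show how the tests perform on them. Alternatives were DESeq2 1.42.0, RLE factors, no low-count filter, a replicate block, each library left out, and other scalings and limits of the choice. Replicate pairs differed by a chi-square per degree of freedom of 3.75 to 46.2, above the noise of counting alone. This does not show that the libraries came from separate cultures. Each library was counted as its own sample. The p-values cover only the spread among these libraries, part or all of which may be technical. The members and lists were chosen with earlier results of these data known. The 27 gene lists and 10 marker lists could not be applied without symbols. The rule for naming genes allowed, without symbols, the ID of the largest fall and that of the highest level in control; members given by rank were chosen after their values were seen.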

Additional observations from a re-analysis of the deposited data

How the results depend on the processing

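The choice of members gave 115 genes with TMM-scaled CPM (106 of them among the 109), 114 with DESeq2 size factors (105), 157 with a floor of 1 CPM, 84 with a floor of 10 CPM and 173 with the siRNA limit widened to 0.2, which admits more genes by construction. With 1 library left out it gave 93 to 122 genes, of which 88 to 106 were among the 109; the smallest set came without scrambled siRNA replicate 3. Using FLVCR2 siRNA replicate 1 alone was chosen after seeing the data. Called members stayed at 109 with succinylacetone in 12 alternatives and at 0 with siRNA in 11. Both counts rest on the libraries and contrasts used for the choice, which nearly fixes them, so nothing is read from them. The median edgeR log2 fold change of the members was -0.62 with succinylacetone (-0.64 to -0.61 with 1 library left out) and 0.006 with siRNA (-0.006 to 0.024). Over all genes, 3736 were called with succinylacetone (2987 to 3658 with 1 library left out) and 231 with siRNA (84 to 217; 84 without FLVCR2 siRNA replicate 2, 150 without scrambled siRNA replicate 3), and 385 with siRNA when no low-count filter was applied; the cause was not tested. The replicate block gave 3837 and 277 called genes, with 109 and 0 members called and median changes of -0.61 and 0.015. Same-numbered libraries share only a number: the correlation of their deviations from the group means ran from -0.015 to 0.057 in the succinylacetone experiment and from -0.003 to 0.038 in the siRNA experiment. The best match was the own number for 1 of 4 succinylacetone and 0 of 3 FLVCR2 siRNA libraries. Alternatives for genes named by symbol were not run. The siRNA intervals were wider for members of low level; depth was not varied.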
